A study of Mus musculus with 11 samples.

Results

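The 8 genes described here, of 31053 in the deposited matrices, are Hal, Uroc1, Amdhd1, Ftcd, Sds, Sdsl, Gls2 and Hsd17b13. They were taken by symbol as a named list of histidine, serine and glutamine breakdown genes. The list mixes roles. Histidine is broken down by Hal (histidine ammonia-lyase), Uroc1 (urocanase), Amdhd1 (imidazolonepropionase) and Ftcd (formimidoyltransferase cyclodeaminase), which act in this order and end in glutamate and a folate-bound carbon. Sds (serine dehydratase) turns serine into pyruvate and ammonia, Sdsl is its relative, and Gls2 is the liver-type mitochondrial glutaminase that frees ammonia from glutamine. Hsd17b13 encodes a hydroxysteroid dehydrogenase of the hepatocyte lipid droplet and is not an amino acid enzyme.

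Blood enters the liver lobule at the portal tract and leaves at the central vein, and hepatocytes along this path divide the work. Cells near the portal tract are known for taking amino acids from portal blood, deaminating them and passing the ammonia to the urea cycle. Cells at the central vein capture remaining ammonia with glutamine synthetase, encoded by Glul. Paracetamol (acetaminophen, APAP) overdose kills hepatocytes outwards from the central vein, so these genes belong to the side of the lobule that is injured least.

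The sections were mouse liver, 3 labelled uninjured at 0 h (replicates 2, 3 and 4) and 8 labelled POD, the study's paracetamol overdose, with 2 at 24 h, 2 at 36 h (A and B in both) and 4 at 48 h (A to D). No label gives a strain, age, sex, mouse, slide or batch. The study's methods describe adult mice, male unless stated otherwise, list C57BL/6JCrl among the lines used, and fast the mice before an intraperitoneal APAP injection without saying whether the uninjured mice were fasted. For the spatial data they state that each time came from 1 mouse, so n counts sections, a p-value measures how sections vary and not how mice vary, and mouse and time cannot be told apart. Each Visium spot captures the RNA of several cells on a barcoded grid.

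Passing spots held 31292663 to 67045372 UMIs (transcript molecules) per section, with a median of 15168.5 to 29950 UMIs per spot. Mitochondrial transcripts took 4.10% to 5.995% of them at 0 h, 1.94% and 2.37% at 24 h, 1.80% in 36 h A, 4.53% in 36 h B and 2.35% to 3.06% at 48 h. No pair of sections within a time point agreed within counting noise. Hepatocyte reference transcripts (Alb, Ttr, Apoa1, Apoa2, Trf and Ambp, summed) made up 118430 to 125097 CPM of the unscaled section total at 0 h, 97820 to 102926 at 24 h, 114852 to 124024 at 36 h and 105970 to 126829 at 48 h. Over the same groups, neutrophil markers summed to 2.49 to 7.17, 41.2 to 136, 27.4 to 68.0 and 39.2 to 129 CPM, mononuclear phagocyte markers to 241 to 249, 403 to 415, 349.6 to 494 and 648 to 1271, and myofibroblast markers to 29.7 to 36.0, 69.2 to 100.4, 136 to 403 and 552 to 1382. The cholangiocyte marker sum was 4.23 to 5.53 CPM at 0 h and 9.11 to 27.6 after injury. Single markers did not all follow the sums. At 24 h all 4 neutrophil markers were called higher than at 0 h, but only 1 of 4 phagocyte markers (Cd68), 1 of 4 myofibroblast markers (Acta2) and 2 of 5 cholangiocyte markers (Sox9 and Cldn4) were, and none of the markers was called lower. Group means of Csf1r were 71.0 CPM at 0 h and 47.6 at 24 h, those of Col3a1 23.8 and 17.2, and those of Epcam 1.58 and 1.08. Their part in the member results was not tested, and in sums over spots fewer hepatocytes and less RNA per hepatocyte cannot be told apart.

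All 8 genes passed the filter on low counts in every fit. Levels are CPM, UMI counts scaled to a fixed library total (here the TMM-scaled section total), and changes are log2 fold changes from edgeR's quasi-likelihood test fitted across all genes, called at a Benjamini-Hochberg adjusted p under 0.05. At 24 h, 4 members were called lower than at 0 h (Hal, Amdhd1, Gls2 and Uroc1), where 18.6% of all 14821 genes tested were called lower, and 1 (Hsd17b13) was called higher, where 23.1% of all genes were. At 36 h and at 48 h, 2 members (Hal and Amdhd1) were called lower than at 0 h, against 12.4% and 20.9% of all genes. From 24 h to 36 h, 3 members (Hal, Gls2 and Uroc1) were called higher, against 7.04% of all genes. With only the 24 h and 36 h sections in the fit these 3 calls were lost (edgeR adjusted p = 0.13 for Hal and Uroc1 and 0.18 for Gls2), and with the section letter as a block among the injured sections only that of Hal was kept (adjusted p = 0.049). From 24 h to 48 h, 4 members (Hal, Gls2, Amdhd1 and Uroc1) were called higher, against 16.2% of all genes. These comparisons share sections, so they are not independent of each other.

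Scaling bears on every direction over time. Scaling to the total count instead of by TMM moved the median of all genes up by 0.33 at 24 h, 0.44 at 36 h and 0.53 at 48 h on the log2 scale against 0 h, and scaling to the hepatocyte reference transcripts moved it up by 0.61, 0.47 and 0.59. Of all calls against 0 h, 80.4%, 94.1% and 93.7% were then higher with total counts and 91.0%, 95.1% and 95.2% with the hepatocyte reference, compared with 55.4%, 57.5% and 52.7% by TMM. The falls of Hal, Amdhd1 and Gls2 at 24 h were called by TMM and under both other scalings. The falls of Hal at 36 h and of both Hal and Amdhd1 at 48 h were called by TMM but with neither of these scalings.

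**Figure D1:**
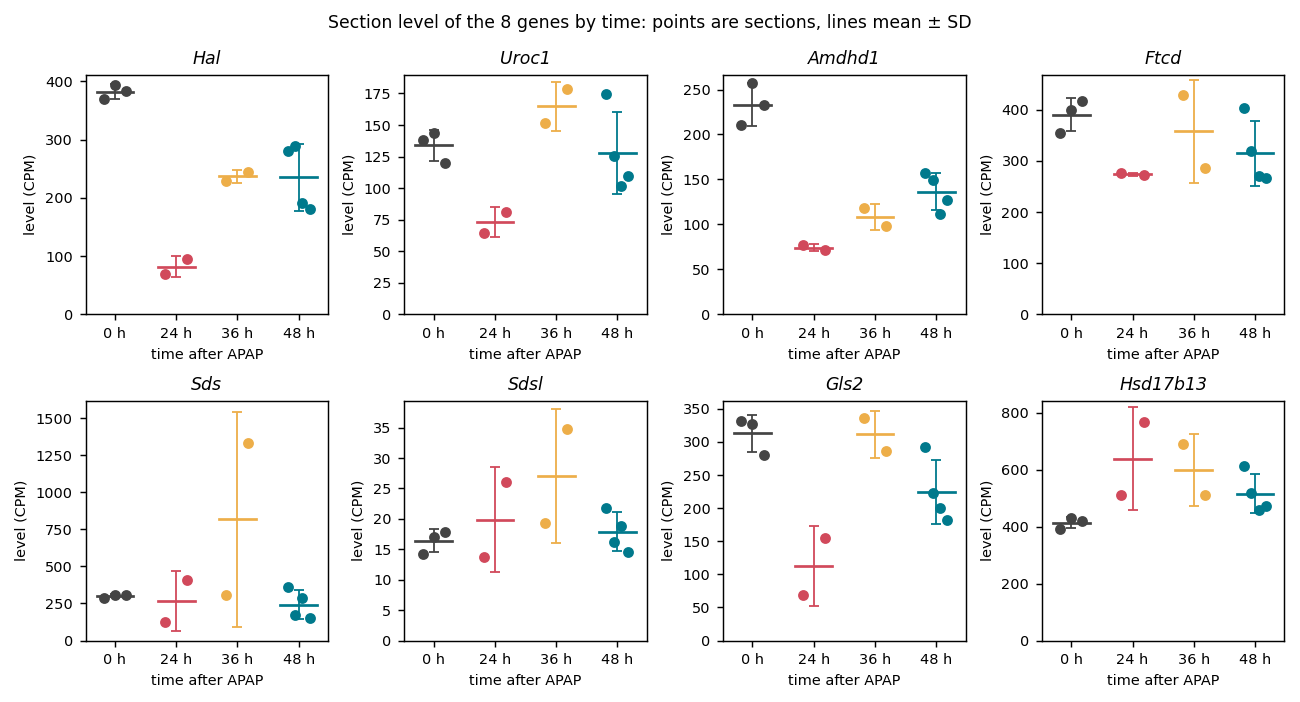
Level of each gene in CPM (y axis, from 0) by time after APAP (x axis), with a point per section and lines for the group mean ± SD (n = 3, 2, 2 and 4). In these TMM-scaled levels, Hal and Amdhd1 in all 8 injured sections lie below the 0 h sections. Hsd17b13 lies above the 0 h sections in all 8, and Sds spreads from 307 to 1332 CPM between the 2 sections at 36 h.

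Hal, which starts histidine breakdown (ENSMUSG00000020017, GRCm38 chromosome 10, 93488768 to 93519304, plus strand), had the largest fall of the 8 genes at 24 h. The 0 h sections held 369, 395 and 384 CPM, the 24 h sections 69.0 and 94.7, the 36 h sections 229 and 245, and 48 h A to D 281, 288, 191 and 180.0. By TMM-scaled CPM the groups did not overlap with 0 h at any later time. Unscaled, 48 h B held 14323 of 43600556 UMIs, a higher share than the 21437 of 67045372 in 0 h replicate 3. The log2 fold change from 0 h was -2.22 ± 0.23 (SE) at 24 h (edgeR adjusted p = 8.4e-05), -0.69 ± 0.22 at 36 h (adjusted p = 0.037) and -0.70 ± 0.18 at 48 h (adjusted p = 0.0088). It regained 1.53 ± 0.24 between 24 h and 36 h (adjusted p = 0.0054). With total-count scaling the change from 0 h was -1.90 at 24 h, -0.25 at 36 h and -0.18 at 48 h, the last 2 not called. The 36 h call was also lost when any 0 h or 36 h section was left out (-0.74 to -0.65).

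Amdhd1, the ring-opening step (ENSMUSG00000015890, chromosome 10, 93523338 to 93540033, minus strand), lies tail to tail with Hal, with 4033 bases between the 3′ ends of the gene models. Its levels were 210.1, 257 and 232 CPM at 0 h, 76.8 and 71.6 at 24 h, 118 and 98.0 at 36 h and 157, 149, 112 and 127 at 48 h. By TMM-scaled CPM no injured section reached the lowest 0 h section. Unscaled, 48 h A held 10844 of 60496993 UMIs, a higher share than the 9543 of 57398798 in 0 h replicate 2. The change from 0 h was -1.65 ± 0.17 at 24 h (adjusted p = 7.4e-05), -1.11 ± 0.17 at 36 h (adjusted p = 0.0014) and -0.78 ± 0.13 at 48 h (adjusted p = 0.00097). Its return was 0.54 ± 0.18 from 24 h to 36 h (adjusted p = 0.059) and 0.88 ± 0.16 from 24 h to 48 h (adjusted p = 0.0025). With total-count scaling the 48 h change was -0.25 and not called. Across the 11 sections the log2 levels of Hal and Amdhd1 had a Pearson r of 0.90, and within sections their spot levels correlated at a median r of 0.30 in the 0 h sections, 0.12 and 0.14 in those of 24 h and 36 h, and 0.40 in those of 48 h. Detection differed between times. A Hal UMI was seen in 93.3% to 97.8% of spots at 0 h, 65.7% to 74.2% at 24 h and 92.7% to 95.0% at 36 h. For Amdhd1 the ranges were 85.9% to 93.6%, 67.3% to 71.1% and 75.8% to 80.3%. The part of low counts in the spot correlations was not tested. Sections share the time points and spots share the depth and the lobule position, so these are descriptions.

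Uroc1, the urocanase between them in the pathway (ENSMUSG00000034456, chromosome 6, 90333284 to 90364551, plus strand), was called lower at 24 h and at no later time. It was measured at 138, 144 and 120.1 CPM at 0 h, 64.6 and 81.4 at 24 h, 151 and 178 at 36 h and 174, 125, 102 and 109.8 at 48 h. Both 24 h sections lay below 0 h, both 36 h sections above it, and the 48 h sections on both sides of it. The change from 0 h was -0.88 ± 0.22 at 24 h (adjusted p = 0.0085) and 0.30 ± 0.21 at 36 h (adjusted p = 0.30). The return of 1.18 ± 0.24 from 24 h to 36 h was called (adjusted p = 0.012), but not with only these 2 groups in the fit (1.19, adjusted p = 0.13), with the letter block (1.17, adjusted p = 0.074) or without 24 h A (1.01, adjusted p = 0.088). Under the hepatocyte reference scaling the 24 h change was -0.28 and not called, and without 24 h A it was -0.72 and not called.

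Ftcd, the folate-linked last step (ENSMUSG00000001155, chromosome 10, 76575648 to 76590338, plus strand), had the smallest 24 h change of the pathway. Sections held 355, 399 and 418 CPM at 0 h, 276 and 272 at 24 h, 429 and 287 at 36 h and 403, 319.7, 271 and 266 at 48 h. Both 24 h sections lay below 0 h, and the later groups overlapped with it. The change at 24 h was -0.51 ± 0.21 (95% interval -0.97 to -0.05), with an edgeR adjusted p of 0.069. DESeq2 called it at -0.53 and the fit of the 0 h and 24 h sections alone at -0.55, whereas the hepatocyte reference scaling gave 0.09. Without 36 h B it was called at -0.55.

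Of the 4 histidine genes, 3 were thus called lower at 24 h and 2 at 36 h and 48 h, and the median log2 fold change over the 4 was -1.26, -0.41 and -0.51, beside 0.05, 0.05 and 0.01 over all genes tested. The 250 bases upstream of the start are given here for Hal and Amdhd1, called lower at every later time, and for Ftcd, called at none. They are given as RefSeq annotates them on GRCm38.p6, 5′ to 3′ on the strand of each gene. The window of Uroc1, called lower at 24 h only, was searched but is not printed. Promoters were matched for 5 of the 8 members. Both strands were searched for TGACG (the core of the cAMP response element), its full form TGACGTCA, TTGCNNAA (C/EBP), GTTAAT (the core of an HNF1 site), CAAAGTCCA (HNF4) and TATAAA, and matches are in capitals. TGACG lies within TGACGTCA.
Hal, chr10:93488518-93488767, plus strand: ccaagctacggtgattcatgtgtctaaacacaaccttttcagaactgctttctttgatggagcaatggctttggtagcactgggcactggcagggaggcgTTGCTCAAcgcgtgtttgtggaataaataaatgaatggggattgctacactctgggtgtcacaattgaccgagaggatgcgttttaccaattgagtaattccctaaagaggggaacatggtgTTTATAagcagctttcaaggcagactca
Amdhd1, chr10:93540034-93540283, minus strand: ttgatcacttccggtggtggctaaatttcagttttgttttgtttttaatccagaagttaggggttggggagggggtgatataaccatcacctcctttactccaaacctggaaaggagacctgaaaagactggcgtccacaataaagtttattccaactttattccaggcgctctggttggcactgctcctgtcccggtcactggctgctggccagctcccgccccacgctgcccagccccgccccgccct
Ftcd, chr10:76575398-76575647, plus strand: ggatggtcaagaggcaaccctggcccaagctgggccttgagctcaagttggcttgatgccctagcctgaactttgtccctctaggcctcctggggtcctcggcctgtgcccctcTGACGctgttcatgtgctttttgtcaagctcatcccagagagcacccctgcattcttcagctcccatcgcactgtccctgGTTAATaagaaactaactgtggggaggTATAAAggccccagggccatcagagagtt
Counted from the annotated start, Hal held a C/EBP match, TTGCTCAA, starting at position -150 and TATAAA on the opposite strand at -28. Ftcd held TGACG at -136, GTTAAT at -56 and TATAAA at -29, and Amdhd1 and Uroc1 held none of the 6 motifs in this window. Among the same windows of all 32851 RefSeq promoters, TGACG was found in 17.8%, TGACGTCA in 1.55%, TTGCNNAA in 9.56%, GTTAAT in 6.43%, CAAAGTCCA in 0.384% and TATAAA in 12.4%. These are matches of letters, and nothing measured here bears on binding.

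Gls2 (ENSMUSG00000044005, chromosome 10, 128194457 to 128210004, plus strand) fell at 24 h and had returned by 36 h. Levels were 331, 327 and 281 CPM at 0 h, 69.3 and 155 at 24 h, 337 and 286 at 36 h, and 293, 222, 199.98 and 182 in 48 h A to D. The 24 h sections lay below all others but differed 2.24-fold from each other, and both 36 h sections lay at or above the lowest 0 h section. The change from 0 h was -1.48 ± 0.31 at 24 h (adjusted p = 0.0036), -0.01 ± 0.29 at 36 h (95% interval -0.66 to 0.64) and -0.48 ± 0.24 at 48 h (adjusted p = 0.13). Without 24 h A the 24 h change was -1.01 and without 24 h B it was -2.18, both called. The return of 1.47 ± 0.33 from 24 h to 36 h (adjusted p = 0.018) was not called without 24 h A, at 1.002, nor was that of 0.999 ± 0.29 from 24 h to 48 h (adjusted p = 0.024), at 0.53.

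Sds (ENSMUSG00000029597, chromosome 5, 120476526 to 120483932, plus strand) differed up to 4.34-fold between sections of a time point. At 0 h it was measured at 290.1, 306 and 311 CPM, a 1.07-fold range. The pairs at 24 h (123 and 411 CPM) and at 36 h (307 and 1332 CPM) then differed 3.35-fold and 4.34-fold, and the 48 h sections lay at 361, 172, 287 and 152 CPM. Sections after injury fell on both sides of 0 h at 24 h and 48 h, and section 36 h B stood far above all others. No comparison with 0 h was called, with changes of -0.18 ± 0.63 at 24 h (95% interval -1.60 to 1.24), 1.44 ± 0.62 at 36 h (adjusted p = 0.11) and -0.31 ± 0.53 at 48 h (95% interval -1.49 to 0.86). Without 36 h B the 36 h change was 0.02, and without 36 h A it was 2.14 and called. With total-count scaling and with the hepatocyte reference the 36 h change was 1.86 and 1.85, both called, and at 24 h the direction turned, to 0.14 and 0.39. 36 h B also held 403 myofibroblast and 68.0 neutrophil marker CPM against 136 and 27.4 in 36 h A, and 4.53% mitochondrial transcripts against 1.80%, and their part in the Sds level was not tested.

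Sdsl (ENSMUSG00000029596, chromosome 5, 120458186 to 120472810, minus strand) is the neighbour of Sds, with 3715 bases between the divergent starts. It was seen in few spots, with a UMI in 22.2% to 43.5% of the passing spots of a section, compared with 77.1% to 99.95% for Sds. It was measured at 14.3, 17.006 and 17.9 CPM at 0 h, 13.7 and 26.0 at 24 h, 19.3 and 34.8 at 36 h, and 21.8, 16.3, 18.9 and 14.5 in 48 h A to D. The B section was higher than the A section at 24 h and 36 h, as for Sds, and across the 11 sections the log2 levels of the pair had a Pearson r of 0.91. Spot by spot within sections the correlation was weak, at a median of 0.18 at 0 h and 0.09 to 0.10 after injury. No change from 0 h was called, at 0.27 ± 0.30 at 24 h, 0.72 ± 0.30 at 36 h (adjusted p = 0.089) and 0.13 ± 0.25 at 48 h. At 36 h it was called with total-count scaling (1.15), with the hepatocyte reference (1.16) and without 36 h A (1.08).

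Hsd17b13 (ENSMUSG00000034528, chromosome 5, 103955440 to 103977410, minus strand) was the only member called higher than at 0 h. It was measured at 391, 429 and 419.8 CPM at 0 h, 509.7 and 767 at 24 h, 689 and 510.1 at 36 h and 613, 518, 458 and 473 at 48 h. All 8 injured sections lay above the highest 0 h section. The change from 0 h was 0.63 ± 0.19 at 24 h (adjusted p = 0.023), 0.54 ± 0.19 at 36 h (adjusted p = 0.058) and 0.32 ± 0.16 at 48 h (adjusted p = 0.14). The 24 h call was lost without any one 0 h section (0.55 to 0.62) and without 24 h B (0.30). With total-count scaling it was called higher at all 3 times, at 0.95, 0.98 and 0.85. The upstream sequence, shown because this was the only member called higher than at 0 h, held TGACG on the opposite strand at -33.
Hsd17b13, chr5:103977389-103977638, minus strand: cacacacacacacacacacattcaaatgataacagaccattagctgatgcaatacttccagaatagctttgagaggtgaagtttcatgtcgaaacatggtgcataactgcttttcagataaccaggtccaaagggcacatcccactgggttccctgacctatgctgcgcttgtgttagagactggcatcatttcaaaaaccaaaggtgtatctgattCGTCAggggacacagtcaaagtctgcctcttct

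Between 36 h and 48 h no member was called by edgeR, where 3.05% of all genes were called in either direction, and none by DESeq2. At an unadjusted p under 0.05, 1 member, Sds, was lower at 48 h (-1.75 ± 0.58, adjusted p = 0.13). The share of all genes at that threshold is not given here. With 1 section left out at a time, the Sds change lay between -2.45 and -0.34. The others lay between -0.60 for Sdsl and 0.33 for Amdhd1.

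The members' place in the lobule was read from other genes. Within each section, spots were ranked by a portal score of 8 genes less a central score of 23 genes from the study's zone lists, with the members removed, and cut into 5 bands of equal spot number. The study had placed 4 members (Hal, Gls2, Sds and Hsd17b13) in its own portal list on these samples, so their portal side is not independent evidence, and it had not listed Uroc1, Amdhd1, Ftcd or Sdsl. At 0 h all 8 members were called higher in the portal-most than in the central-most band in a fit with the section as a block, where 8.79% of all 13264 genes were called higher. The log2 difference was 2.13 ± 0.18 for Sds, 1.93 ± 0.15 for Hsd17b13, 1.64 ± 0.11 for Hal, 1.62 ± 0.12 for Sdsl and 1.58 ± 0.10 for Gls2. It was 1.11 ± 0.06 for Amdhd1, 0.93 ± 0.06 for Uroc1 and 0.77 ± 0.06 for Ftcd, so that the later histidine enzymes were less steep than Hal. The largest edgeR adjusted p was 9.49e-05, and the differences between members were not tested.

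Band levels at 0 h rose from the central-most to the portal-most band. Each band sums many spots of several cells, so a gradual rise and a sharp boundary cannot be told apart. Hal went from 187 ± 14.4 CPM (SD, n = 3) in the central-most band to 575 ± 17.2 in the portal-most band, and Sds from 123 ± 7.12 to 531 ± 5.02. Ftcd went from 286 ± 39.9 to 482 ± 23.0 and Uroc1 from 88.0 ± 11.9 to 166 ± 15.6. Values of Hal, Uroc1, Amdhd1, Sds, Gls2 and Hsd17b13 were higher at every step between neighbouring bands in 11 of 11 sections, those of Ftcd in 10 and those of Sdsl in 7.

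**Figure D2:**
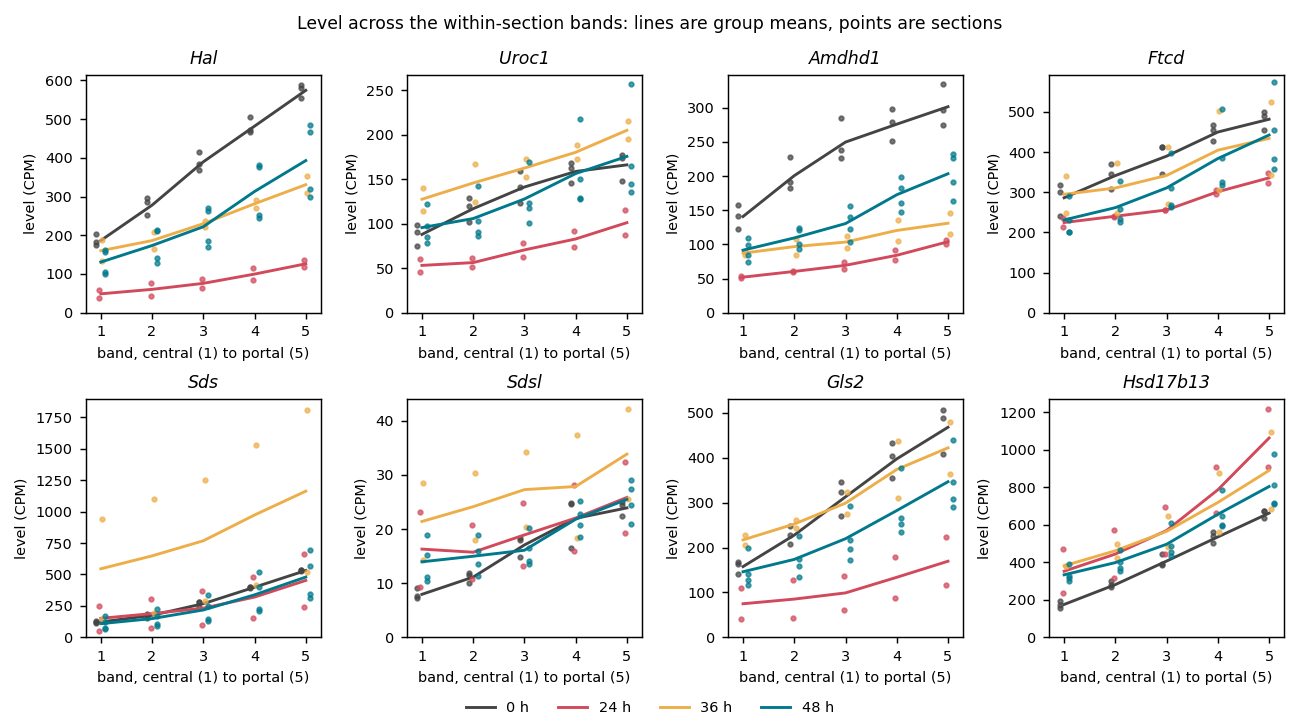
Level of each gene in CPM (y axis, from 0) in the 5 within-section bands from central-most to portal-most (x axis), with a point per section and a line for each time point's mean. At 0 h Hal climbs from 187 to 575 CPM, and at 24 h its whole profile is lower, from 48.8 to 126 CPM.

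By a measure of place that uses no portal gene, all 8 members were also lower on the central side. At 0 h, levels were summed by hexagonal steps from the 5% of spots richest in Glul. From those spots to spots at least 3 steps away, Hal went from 178 ± 14.8 to 445 ± 17.9 CPM, Hsd17b13 from 149 ± 13.4 to 487 ± 24.8, Sds from 110.3 ± 8.59 to 364 ± 7.01 and Gls2 from 148 ± 7.83 to 361 ± 40.6. Amdhd1 went from 107 ± 21.8 to 257 ± 24.2, Ftcd from 211 ± 28.2 to 419 ± 25.5, Uroc1 from 83.1 ± 3.49 to 144 ± 15.1 and Sdsl from 8.35 ± 1.33 to 18.7 ± 2.21. For all 8 most of the climb lay within the first 2 steps.

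After injury all 8 members were still called higher in the portal-most band at 24 h, 36 h and 48 h, where 12.4%, 8.21% and 23.5% of all genes were. Without 24 h A the Sdsl difference at 24 h was 0.48 and not called, and without 36 h A the Sds difference at 36 h was 0.98 and not called. The ranking itself changed meaning. The median log2 difference of the central genes, -1.18 to -1.15 at 0 h, lay between -0.81 and -0.20 at 24 h and 36 h and between -0.19 and 0.26 at 48 h, while that of the 8 portal scoring genes stayed at 1.02 to 1.30 in all injured sections but 36 h B (0.69). The central genes thus separated the bands of injured sections less than those of 0 h. Among the spots of the injured central-most bands 0.76% to 12.5% were hepatocyte-low, a class defined by few hepatocyte reference transcripts, against 0% to 2.10% in the portal-most band.

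Within this frame the portal bias shrank for some members, tested as the change in the zone difference from 0 h. Other transcripts moved between the same bands. The median log2 portal-minus-central difference of the 6 hepatocyte reference genes was 0.27 to 0.29 at 0 h and 0.33 to 0.69 after injury. Myofibroblast markers summed to 31.0 to 33.5 CPM in the central-most and 34.0 to 37.7 CPM in the portal-most band at 0 h, and to 704 to 1893 and 243 to 749.7 CPM at 48 h. Their part in the zone changes was not tested. Sdsl narrowed at all 3 times, by -0.89 ± 0.19 at 24 h (adjusted p = 0.0012), -0.92 ± 0.18 at 36 h (adjusted p = 0.00065) and -0.73 ± 0.15 at 48 h (adjusted p = 0.00027). Its per-section log2 differences were 1.58, 1.75 and 1.47 at 0 h, 1.05 and 0.47 at 24 h, 0.82 and 0.60 at 36 h and 0.59, 1.13, 0.87 and 1.01 at 48 h, with no overlap with 0 h. Ranked by the portal score alone the change was -0.47 at 24 h, not called, and -0.36 at 48 h, called, and without 24 h B the 24 h change was -0.57 and not called. In levels, the central-most band went from 7.95 ± 0.993 CPM at 0 h to 16.3 ± 9.81, 21.4 ± 9.93 and 14.0 ± 3.89, and the portal-most band from 23.9 ± 1.37 to 25.8 ± 9.39, 33.8 ± 11.8 and 25.5 ± 3.53. Sdsl was the only member called narrower at 24 h, where 6.02% of all genes were.

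At 36 h, 3 members (Sdsl, Gls2 and Amdhd1) were called narrower, against 4.36% of all genes. Amdhd1 changed by -0.50 ± 0.10 (adjusted p = 0.00049), with section differences of 0.69 and 0.49 against 1.17, 1.07 and 1.08 at 0 h. Gls2 changed by -0.60 ± 0.15 (adjusted p = 0.025), with 1.22 and 0.70 against 1.64, 1.54 and 1.54. All 8 members had negative values at 36 h, 3 of them called, beside a median of 0.017 over all genes tested. For each member the difference in 36 h B was smaller than in 36 h A. The median difference of the 8 portal scoring genes was also smaller in 36 h B (0.69) than in 36 h A (1.18). The Gls2 call was lost without any one 0 h section, without 36 h B (-0.35) and without 48 h D. When spots were ranked by the portal score alone, the change was -0.15 for Amdhd1 and -0.21 for Gls2, neither called, and -0.73 for Sdsl, called.

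At 48 h, 2 members (Sdsl and Hsd17b13) were called narrower, against 13.4% of all genes, and 1 (Ftcd) wider, against 19.1%. Hsd17b13 changed by -0.63 ± 0.19 (adjusted p = 0.034), with section differences of 1.28, 1.32, 1.25 and 1.20 against 2.02, 1.78 and 1.97 at 0 h. Its level rose on the central side, from 176 ± 18.4 to 334 ± 40.1 CPM, and lay at 662 ± 21.7 and 804 ± 123 CPM on the portal side. Without any one 0 h or 48 h section it was no longer called (-0.72 to -0.60). Ftcd changed by 0.19 ± 0.07 (adjusted p = 0.046), a call lost when replicate 3 or 4 of 0 h or section A, B or C of 48 h was left out (0.11 to 0.18). Ranked by the portal score alone, the 48 h change of Hsd17b13 was 0.18, opposite in direction and not called, while Ftcd (0.77), Hal (0.67) and Uroc1 (0.67) were called wider. With total-count scaling Ftcd changed by -0.06. The zone difference of Hal at 48 h was -0.01 ± 0.14 from 0 h, with an interval of -0.33 to 0.30.

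**Figure D3:**
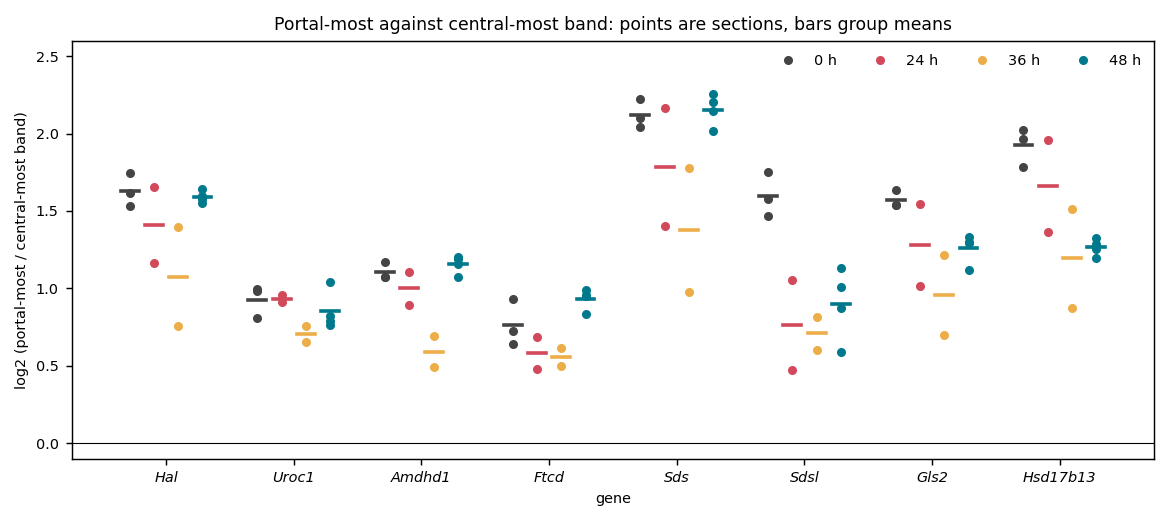
Log2 ratio of the portal-most to the central-most band (y axis) for each gene (x axis), with a point per section and a bar for the mean of each time point. All points lie above 0, and Sdsl at 24 h, 36 h and 48 h and Hsd17b13 at 48 h lie below their 0 h points.

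To ask whether the falls were limited to spots near the injury, the portal-most bands were compared alone. At 24 h, 3 members (Hal, Amdhd1 and Gls2) were called lower there, against 12.3% of 12757 genes, and 1 (Hsd17b13) higher, against 14.2%. Hal went from 575 ± 17.2 to 126 ± 12.2 CPM (log2 fold change -2.16 ± 0.22, adjusted p = 8.7e-05), Amdhd1 from 302 ± 30.5 to 104 ± 4.26 (-1.51 ± 0.18, adjusted p = 0.000197) and Gls2 from 468 ± 53.0 to 169.5 ± 75.2 (-1.44 ± 0.26, adjusted p = 0.0025). Between 0 h and 24 h the hepatocyte reference transcripts of these bands went from a range of 127126-133786 CPM to 110633-117667, neutrophil markers from 1.59-9.30 to 27.9-64.5 and myofibroblast markers from 34.0-37.7 to 42.8-82.0, while hepatocyte-low spots made up 0% to 0.37% at 0 h and 0% at 24 h. The part of these shifts in the falls was not tested. Hsd17b13 changed by 0.71 ± 0.20 (adjusted p = 0.022) and Uroc1 by -0.69 ± 0.25 (adjusted p = 0.057). The Hsd17b13 call was lost without any one 0 h section or 24 h B (0.49 to 0.73). The falls of Hal, Amdhd1 and Gls2 were thus present in the band of spots with the highest portal rank.

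At 36 h and 48 h, 2 members (Hal and Amdhd1) were called lower in the portal-most band, against 4.43% and 7.39% of all genes. Amdhd1 changed by -1.16 ± 0.18 (adjusted p = 0.0048) and -0.55 ± 0.14 (adjusted p = 0.021), and Hal by -0.75 ± 0.21 (adjusted p = 0.042) and -0.53 ± 0.17 (adjusted p = 0.048). With total-count scaling Hal changed by -0.45 and -0.21 and was called at neither time, and Amdhd1 by -0.85, called, and -0.23, not called. The Hal call at 36 h was lost without any one 0 h, 24 h or 36 h section (-0.83 to -0.67), and at 48 h without any one 0 h or 24 h section, 48 h C or 48 h D (-0.55 to -0.42). The Amdhd1 call at 48 h was lost when replicate 3 or 4 of 0 h or section C of 48 h was left out (-0.55 to -0.46).

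Around hepatocyte-low spots the members were lower in place. Relative to spots at least 3 steps away in the same section, the median ratio over the 7 injured sections with at least 20 such spots was 0.32 for Sds, 0.34 for Hsd17b13, 0.39 for Amdhd1, 0.41 for Hal, 0.44 for Uroc1, 0.45 for Gls2, 0.46 for Ftcd and 0.61 for Sdsl. In spots touching them, over all 8 injured sections, it was 0.49 for Sds, 0.59 for Hal, 0.63 for Gls2, 0.64 for Hsd17b13, 0.70 for Amdhd1, 0.75 for Ftcd, 0.77 for Uroc1 and 0.78 for Sdsl. Every touching ratio was below 1, and so was every hepatocyte-low ratio but that of Sdsl in 24 h A (1.26). The class was defined by low hepatocyte transcripts and lies mostly on the central side, where these genes are lower at 0 h too, so the values carry no test.

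**Figure D4:**
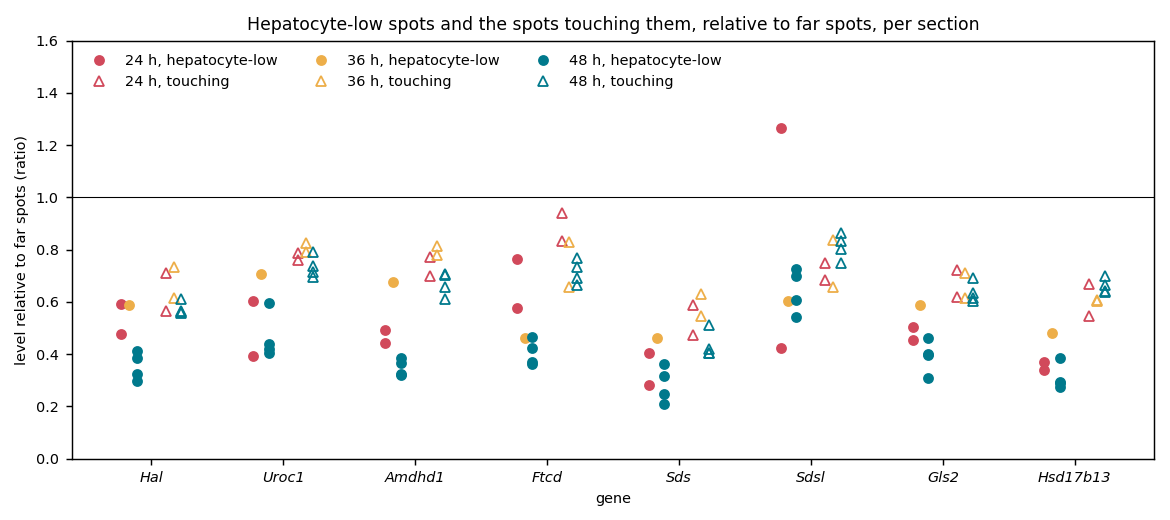
Level in hepatocyte-low spots (filled circles) and in spots touching them (open triangles) divided by the level in spots at least 3 steps away (y axis, ratio), for each gene (x axis) and each injured section, coloured by time. Nearly all points lie below 1, with Sds lowest and Sdsl in 24 h A at 1.26.

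Neighbouring pathways give the members their setting at 24 h against 0 h, from lists of genes chosen for function. The counts are to be read against the 18.6% of all genes called lower and the 23.1% called higher in this comparison. Of 6 urea cycle genes, 4 were called lower and none higher, led by Ass1 at -2.12 and Otc at -2.07, the enzymes that make argininosuccinate and citrulline. The list's median was -1.16, beside 0.05 for all genes. Of 14 glutamine and glutamate genes, 6 were lower, led by the central-vein enzyme Glul at -3.53 and by ornithine aminotransferase Oat at -3.31. Of 13 serine and glycine genes, 6 were lower, led by Shmt1 at -1.17 and Agxt at -1.13, and 3 were higher, led by the serine synthesis enzymes Psat1 at 5.13 and Phgdh at 3.38. The 0 h sections held 0.682, 0.883 and 0.706 CPM of Psat1 and the 24 h sections 29.1 and 24.4. For Phgdh they held 0.176, 0.129 and 0.254 CPM and then 1.89 and 1.91.

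Most genes of other amino acid lists were lower at 24 h too. Of 7 phenylalanine and tyrosine genes 6 were lower, led by Tat at -2.81, of 8 tryptophan and lysine genes 7 (Aadat, -2.16, and Afmid, -1.79), of 10 methionine and sulfur genes 9 (Cth, -2.68, and Gnmt, -2.24) and of 9 branched-chain genes 7 (Hibadh, -1.86, and Dbt, -1.45). The 4 lists had medians of -1.54, -1.36, -1.12 and -0.87. Of 8 one-carbon folate genes, which receive the carbon that Ftcd releases, 2 were lower (Aldh1l1, -1.40, and Mthfd1, -0.997) and 2 higher (Mthfd1l, 2.69, and Mthfd2, 1.80), shares near those of all genes. Of the 6 hepatocyte reference genes 4 were lower and 1 (Trf, 0.55) higher, with a median of -0.51. Of 8 lipid droplet genes 3 were lower, led by Cideb at -1.18 and Plin5 at -1.13, and 1 higher (Cidec, 2.499), so Hsd17b13 and Cidec went one way and Cideb and Plin5 the other.

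By 36 h some of this had returned relative to 24 h, where 7.04% of all genes were called higher. Of 6 urea cycle genes 4 were called higher, led by Ass1 at 2.08 and Asl at 1.89, and of 14 glutamine and glutamate genes 5, led by Prodh at 1.90 and Slc38a4 at 1.63. Hal, Gls2 and Uroc1 rose in the same comparison. In the zone fit at 0 h, where 8.79% of all genes were called higher and 8.66% lower, 5 of 6 urea cycle genes were called higher on the portal side and none lower. Of 13 serine and glycine genes 2 were higher and 3 lower, of 14 glutamine and glutamate genes 4 and 5, and of 9 branched-chain genes 0 and 2.

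The genes whose section levels were most like each member's were named by the highest Pearson r of log2 CPM over the 11 sections, out of 14813 genes. For Gls2 the first was Slc38a4, an amino acid transporter (r = 0.99), which was measured at 437, 446 and 395 CPM at 0 h, 106 and 190.2 at 24 h, 460.0 and 458 at 36 h and 407, 331, 297 and 254 at 48 h. For Hal they were Iyd, Lypla1 and Gchfr (0.97 each), and for Amdhd1 Fbxo8, Gstk1 and Hibadh (0.98, 0.98 and 0.97). For Uroc1 they were Naaladl2, Cobll1 and Dhtkd1 (0.96 each), and Dhtkd1 was also second for Gls2 (0.96). For Sds they were Klf13, St3gal5 and Tns1 (0.96, 0.95 and 0.93) and for Sdsl Ddit4, Tmem2 and Pfkfb2 (0.93, 0.92 and 0.92). Ddit4 in 36 h B lay at 43.1 CPM against 7.60 to 17.9 CPM in the other sections, and Klf13 at 48.7 CPM against 8.15 to 19.6 CPM, the section that was also highest for Sds and Sdsl. For Ftcd the genes were Proz, Gtf2i and Abcg8 (0.97, 0.92 and 0.92) and for Hsd17b13 Ikbkb, Ndel1 and Xdh (0.92, 0.91 and 0.91). Sections share time points, so these are descriptions of likeness only.

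Of 6 glucagon and fasting response genes, a programme known to induce Sds, 2 were called lower at 24 h (G6pc, -3.23, and Creb3l3, -0.70). Of all genes 18.6% were called lower in this comparison. Pck1, which encodes the gluconeogenic PEP carboxykinase and was chosen after its values were seen, lay at 1186, 1476 and 1525 CPM at 0 h. It was measured at 228 and 958 CPM in 24 h A and B and at 701 and 1319 CPM in 36 h A and B, higher in B at both times, as Sds was. Ppargc1a, called higher at 36 h than at 24 h (1.98), was at 2.98 and 10.2 CPM in 36 h A and B and at 1.46 and 1.88 in 24 h A and B. Igfbp1 was higher in B at both times, at 259 and 867 CPM at 24 h and 243 and 623 at 36 h. The other genes of the list were not higher in B at both times. Creb3l3 lay at 175 and 174 CPM in 24 h A and B and at 249 and 204 in 36 h A and B, Gcgr at 409 and 345 and then 413 and 195, and G6pc at 65.3 and 33.1 and then 64.4 and 91.7. The fasting state of each mouse is not in the labels, and its part was not tested.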

How the data were processed

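UMI counts per gene and barcode were deposited for 11 mouse liver sections (31053 genes by 4992 Visium barcodes). The authors aligned reads with Space Ranger 1.0.0 to mm10 (Ensembl 93 per the study's methods) and the deposited counts are not normalized. The submitters' processing notes also name Seurat 4.1.1. Groups came from the labels. The members and gene lists were chosen with earlier results of these data known. The 4 members in the study's portal list were left out of the zone scores.

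Tissue spots with at least 800 genes and at most 20% mitochondrial UMIs, the limits of the study, were kept and summed per section. Sums were tested with edgeR 4.0.16 (R 4.3.3) by the robust quasi-likelihood test with TMM and filterByExpr, all 11 sections in 1 fit, and with DESeq2 1.42.0 as an alternative. For zones, each spot was thinned to 2000 UMIs, ranked by the portal score minus the central score, and cut into 5 bands of equal spot number, and the 2 outer bands were fitted with the section as a block. Hepatocyte-low spots lay below percentile 1 of the 0 h spots for the hepatocyte reference score. Named genes were all members, up to 2 called genes a direction in each related list, and the 3 genes most like each member. Some single genes of the related lists are not reported here. Other alternatives were total-count and hepatocyte reference scaling, no count filter, each section left out, other zone lists and other spot choices. The fits were also run on simulated counts with known changes and a fixed spread. Depth was 31292663 to 67045372 UMIs per section, and p-values cover only the spread between sections. Positions follow the GENCODE annotation of GRCm38.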

Additional observations from a re-analysis of the deposited data

Results flagged for a closer look

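The portal-to-central difference of 5 members changed from 0 h by the test of the difference itself (edgeR, adjusted p under 0.05), narrowing for 4 and widening for Ftcd. In the same test the difference was called lower for 6.02% of all genes at 24 h, 4.36% at 36 h and 13.4% at 48 h. It was called higher for 19.1% of all genes at 48 h. Sdsl changed by -0.89 at 24 h, -0.92 at 36 h and -0.73 at 48 h on the log2 scale. Amdhd1 changed by -0.50 and Gls2 by -0.60 at 36 h, Hsd17b13 by -0.63 at 48 h and Ftcd by 0.19 at 48 h. Ranking by the portal score alone removed the calls of Amdhd1, Gls2 and Hsd17b13 and the 24 h call of Sdsl (-0.47, adjusted p = 0.055).

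Barcodes outside the tissue, used in no comparison, also carried UMIs of the 8 members. Their summed share was 1370.3, 1491 and 1515 CPM of the off-tissue UMIs in the 0 h sections, and 903 and 1209 at 24 h. It was above the highest 0 h section in the later ones, at 1655 in 36 h A, 2459.9 in 36 h B, 2511 in 48 h A, 1646 in 48 h B, 1684 in 48 h C and 1551 in 48 h D. The same share on the tissue was 1215 to 3122 CPM and higher than off the tissue in all 11 sections.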

How the results depend on the processing

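The 8 portal-over-central differences kept their direction at all 4 times under every scaling, tool, filter and zone definition run. Over all alternatives of single members, 799 results in whole sections, 356 in the portal-most band and 912 in zones kept direction and call, 48, 12 and 27 turned direction, and the others gained or lost a call. Causes were not tested beyond what a setting's own construction shows.

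Among whole sections, total-count scaling gave 5 called members at 36 h against 0 h, as did the hepatocyte reference. Many of all genes were called there too. Total counts called 7064 of 14821 genes higher and 442 lower, and the hepatocyte reference 6639 of 14880 higher and 341 lower. By TMM 2488 of 14821 were higher and 1841 lower. Total-count scaling turned Sds at 24 h (0.14), Ftcd (0.32) and Gls2 (0.43) at 36 h, and Uroc1 (0.46), Ftcd (0.22), Sds (0.22) and Gls2 (0.045) at 48 h. It also turned Hsd17b13 from 24 h to 36 h (0.031), Sds (0.080) and Sdsl (0.060) from 24 h to 48 h, and Hal from 36 h to 48 h (0.077). The hepatocyte reference turned Ftcd (0.089) and Sds (0.39) at 24 h, Ftcd (0.36) and Gls2 (0.47) at 36 h, Uroc1 (0.51), Ftcd (0.27), Sds (0.29) and Gls2 (0.10) at 48 h, and Hal from 36 h to 48 h (0.10). Hal in that last comparison, near 0 throughout, also turned with DESeq2 (0.0037), with no filter (0.013) and without hepatocyte-low spots (0.046), which turned Gls2 at 36 h to 0.0029. With only the 2 groups compared, 4 members were called at 48 h and 0 from 24 h to 36 h.

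Whether the replicate letters A and B mark a pairing of sections could not be settled. Deviations of sections sharing a letter correlated at 0.29 between 24 h and 36 h and at -0.24 to 0.07 in pairs with 48 h. With 2 sections each at 24 h and 36 h, the A and B deviations mirror each other, so 0.29 is the same value for both letters. With the letter as a replicate block among the 8 injured sections, 1 member was called from 24 h to 36 h (Hal, 1.55) and 2 from 24 h to 48 h (Hal, 1.81, and Amdhd1, 1.04). The same sections without the block, added after seeing the data, gave Hal and Uroc1 in the first and Hal, Uroc1 and Amdhd1 in the second. The block turned Sds (0.44) and Sdsl (0.036) from 24 h to 48 h, and Hal (0.26) and Ftcd (0.023) from 36 h to 48 h.

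In the portal-most band, total-count scaling called 1 member at 48 h and turned Ftcd (0.20) and Gls2 (0.20) at 36 h and Ftcd (0.22) and Sds (0.20) at 48 h. Of all 12757 genes, that scaling called 3843 higher and 285 lower at 48 h, and TMM 1096 and 943. At 48 h, 1 member was also called without hepatocyte-low spots and with textbook zone lists, which turned Gls2 at 36 h (0.025) and Sds at 48 h (0.0063).

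For the change in zone difference at 24 h, 3 members were called with total-count scaling, 4 with no filter, 3 with textbook lists and 0 with the portal score alone. Uroc1 turned with total counts (-0.19) and without hepatocyte-low spots (-0.021), and Hal (0.16) and Amdhd1 (0.071) with the portal score alone. At 36 h, 7 were called with total counts, 6 with DESeq2, 6 with no filter and 1 with the portal score alone, which turned Uroc1 (0.19) and Ftcd (0.065), as textbook lists turned Uroc1 (0.019). At 48 h, 6 were called with textbook lists and 7 with the portal score alone. There total counts turned Amdhd1 (-0.18), Ftcd (-0.065) and Sds (-0.20), 3 bands instead of 5 turned Hal (0.0088) and Uroc1 (0.033), textbook lists turned Hal (0.34), Uroc1 (0.31) and Gls2 (0.12), and the portal score alone turned Hal (0.67), Uroc1 (0.67), Gls2 (0.44) and Hsd17b13 (0.18).

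Leaving out 1 section at a time turned the direction of a member or moved a count of called members in the results given here as lowest to highest over the 11 fits. Where this left 1 section at a time point, that section was assumed to vary like the other groups. For 24 h against 0 h in whole sections, the range was the number called 4 to 6, Sds -1.30 to 0.44, Sdsl -0.26 to 0.67. For 36 h against 0 h in whole sections, the range was the number called 1 to 3, Gls2 -0.13 to 0.11, Ftcd -0.45 to 0.14. For 48 h against 0 h in whole sections, the range was the number called 2 to 3, Uroc1 -0.25 to 0.029. For 36 h against 24 h in whole sections, the range was the number called 1 to 4, Hsd17b13 -0.36 to 0.23, Sdsl -0.0022 to 0.98. For 48 h against 24 h in whole sections, the range was the number called 2 to 4, Sds -0.76 to 0.99, Sdsl -0.54 to 0.38, Hsd17b13 -0.58 to 0.018. For 48 h against 36 h in whole sections, the range was Ftcd -0.45 to 0.14, Hsd17b13 -0.43 to 0.017, Hal -0.13 to 0.10. For 24 h against 0 h in the portal-most band, the range was the number called 3 to 5, Sds -1.11 to 0.34, Sdsl -0.28 to 0.46. For 36 h against 0 h in the portal-most band, the range was the number called 1 to 2, Ftcd -0.43 to 0.16, Gls2 -0.30 to 0.075. For 48 h against 0 h in the portal-most band, the range was the number called 0 to 2, Uroc1 -0.14 to 0.21, Sds -0.36 to 0.032. For portal against central at 24 h and at 36 h, the range was the number called 7 to 8. For the zone difference at 24 h against 0 h, the range was Uroc1 -0.048 to 0.042, the number called 0 to 2, Hal -0.46 to 0.017, Sds -0.71 to 0.038, Hsd17b13 -0.56 to 0.029. For the zone difference at 36 h against 0 h, the range was the number called 2 to 6. For the zone difference at 48 h against 0 h, the range was Hal -0.080 to 0.024, the number called 1 to 4.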
